A study of Mus musculus with 47 samples.

Results

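The major urinary proteins are a family of small secreted proteins encoded by a cluster of closely related genes on mouse chromosome 4. The 7 genes described here, Mup1, Mup2, Mup3, Mup4, Mup5, Mup20 and Mup21, were taken by name from the 26608 gene symbols of the deposited count tables. The tables hold 13 other Mup symbols, pseudogenes included, so that the family has 20 symbols in all. Of the 7 genes, 4 had at least 1 tag in liver (Mup3, Mup21, Mup4 and Mup5), 3 in inguinal white adipose tissue (IWAT) and 3 in brown adipose tissue (BAT) (Mup3, Mup21 and Mup4), and 2 in gastrocnemius muscle (Mup3 and Mup21). Mup1, Mup2 and Mup20 were listed at 0 tags in each of the 47 libraries.

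The libraries came from male C57BL/6J mice on a control diet (6 mice) or a diet restricted in methionine (6 mice), begun at 5 weeks of age and fed freely for 11 weeks. The mice lived at 23 °C and were fasted for 5 h before dissection. The labels name no other genotype or agent in either group. Each tissue gave 6 libraries per diet, except gastrocnemius under restriction with 5, and each library is taken here as 1 animal because the 4 tissues share the same animal numbers. The assay counts a short sequence tag from the 3′ end of each transcript, so a transcript gives 1 tag whatever its length, and tag levels of different genes can be set side by side without dividing by length.

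Major urinary proteins belong to the lipocalins, barrel-shaped proteins that carry small hydrophobic molecules. Hepatocytes secrete them into blood, the kidney passes them into urine, and there they bind and slowly release volatile pheromones. In mouse liver their synthesis is higher in males and depends on pulsatile growth hormone, which acts through the kinase JAK2 and the transcription factor STAT5B, with further input from androgens and thyroid hormone. Mup20 encodes darcin, the male urinary protein that attracts females, while Mup4 and Mup5 are known mainly from lacrimal, salivary and nasal glands.

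The members are so alike that the tag sequence decides what can be counted. The coding sequences of Mup1 and Mup2 differed at 3 of 543 aligned positions (99.4% identity) in the GENCODE transcripts, and Mup3 and Mup21 were 94.8% identical over 555 aligned positions. Every other pair of the 7 was between 83.2% and 92.3% identical. The tags of this kit begin at CATG, the site of the enzyme NlaIII. The 27 bases from each gene model's site nearest the 3′ end are shown because a tag is assigned by its letters, with the CATG in capitals.

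Mup1: CATGaatttcttcctcttcctgttcaa
Mup2: CATGaatttcttcctcttcctgttcaa
Mup20: CATGaatttcttcctcttcctgttcaa
Mup3: CATGgaaattctccattgatttctttc
Mup4: CATGacaattctccaagaattgcttcc
Mup5: CATGacaattctccaagaattgcttcc
Mup21: CATGgaatcattagagaaaatatcatt

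Mup1, Mup2 and Mup20 end in 1 common tag, which 14 Mup genes of the annotation share. Mup3 has a last tag found in no other Mup gene, and Mup4 and Mup5 share theirs with each other. The last tag of Mup21 lies in its coding sequence and also occurs in Mup3, at the fourth site from the 3′ end of that transcript, because the Mup21 model ends soon after its stop codon. All 3 full-length tags of the Mup21 model occur in Mup3 too, whereas Mup3 has 3 tags of its own among 7. Of the 21 protein-coding Mup genes with a reference transcript, 4 had a last tag of their own (Mup3, Mup6, Mup11 and Mup17) and 17 did not.

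Per the labels, tags were mapped uniquely to mouse RefSeq genes. Mup1 and Mup2, with no tag of their own at any of 6 sites, were listed at 0. Mup21, whose model has no tag of its own at any of 3 sites, was listed with 78620 tags over the 12 livers. Mup10, Mup12 and Mup15 carry the same last tag as Mup1 and had 24910, 6837 and 3819 tags over the 12 livers. Mup20 was listed at 0 although 6 of its 8 tags occur in no other Mup gene, and 1 of these stands at the site next to its last, which gives a tag only when digestion at the last site is incomplete.

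Mup20, second site from the 3′ end: CATGacaattctccatgaatttcttcc

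The part that shared tags played in the zero counts of Mup1, Mup2 and Mup20, and in the division of tags between Mup3 and Mup21, was not tested. The gene models used for the tags belong to an older mouse build than the one the authors mapped to, so the tags describe the transcripts' letters and not the authors' mapping index. Levels below are given as CPM, the tag count divided by the library's total tag count and multiplied by 1000000. The counts of 0 allow at most 0.247 to 0.389 CPM in the liver libraries (3 tags over each total), for tags assigned to these symbols.

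The genes lie within a single stretch of chromosome 4 on GRCm38.p6, as RefSeq places them. Mup4 is at chr4:59956804-59960667, Mup2 at chr4:60135913-60139977 and Mup1 at chr4:60498012-60501960. Mup5 follows at chr4:61831319-61858043, Mup20 at chr4:62011337-62054143, Mup3 at chr4:62083476-62087317 and Mup21 at chr4:62147832-62150841. Mup3 and Mup21, the most abundant of the members in these libraries, are neighbours among the protein-coding genes of that annotation, both on the minus strand.

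Library totals ran from 4887004 to 13117537 tags, and in liver from 7710740 to 12130444. Each tissue's defining markers were present in every library of that tissue for all 6 white adipocyte markers in IWAT, all 6 brown adipocyte markers in BAT, all 9 muscle markers in gastrocnemius and all 19 hepatocyte markers in liver. In IWAT, 3 libraries (IWAT3106 and IWAT3115, control, and IWAT3116, restricted), and in gastrocnemius 1 (SM3101, restricted), had a median Spearman correlation with the other libraries of their tissue below 0.8, at 0.628, 0.719, 0.647 and 0.582. No batch is named in the labels, and no 2 libraries of a tissue held identical counts.

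In liver, Mup3 was the second most abundant symbol under both diets, and Mup21 the member that changed with diet. Mup21 tags under methionine restriction stood at 0.376 of the control level. Mup3 was lower in the mean by a smaller amount that did not pass the test, and Mup4 did not differ beyond its spread. Mup5 was at the edge of detection.

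Mup3 supplied 90.6% to 97.3% of the tags assigned to Mup symbols in each liver. Mup3 has a last tag of its own, and 17 of the 21 Mup genes of the annotation do not. The part of shared, unassigned tags in that percentage was not tested. On the control diet the Mup3 level was 29331 CPM at the lowest, 58630 at the median and 68510 at the highest. Under restriction it was 29472 at the lowest, 40414 at the median and 63276 at the highest. The ranges therefore overlapped almost fully, although 5 of 6 restricted livers lay below the control mean. The means were 52696 ± 14876 (SD, n = 6) on the control diet and 41888 ± 12058 (SD, n = 6) under restriction. In edgeR's quasi-likelihood test the log2 fold change of Mup3 was −0.54 (SE 0.24), with a Benjamini-Hochberg adjusted p of 0.325 over the 10969 genes tested and an unadjusted p of 0.042. As a share of the whole library, Mup3 made up 2.93% to 6.85% of control liver tags and 2.95% to 6.33% of restricted liver tags.

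Mup21 was lower in the restricted livers. Control livers held 561.7 CPM at the lowest, 942.2 at the median and 1282 at the highest. Restricted livers held 213.0 at the lowest, 324.8 at the median and 528.7 at the highest. The groups did not overlap: all 6 restricted livers were below the lowest control liver, a separation that 48 of the 10969 genes tested (0.438%) showed in this direction, while 1.21% were called lower. In raw tags the same separation held, from 5637 to 15552 on the control diet and from 1952 to 4077 under restriction. The means were 901.7 ± 260.4 (SD, n = 6) and 338.7 ± 117.1 (SD, n = 6). In edgeR's quasi-likelihood test Mup21 fell by 1.62 on the log2 scale (SE 0.25), with a Benjamini-Hochberg adjusted p of 0.00191. In bulk tissue, fewer cells of a type and less RNA per cell cannot be told apart. The full-length tags of the Mup21 model are also found in Mup3, and unique mapping would assign such tags to neither. Since 78620 tags were listed for Mup21 in liver, the tag counted for it cannot be read from that model. Ordered by mean CPM, Mup21 stood at place 140 among the symbols on the control diet and at place 377 under restriction.

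Mup21 was the only 1 of the 3 members tested in liver (Mup3, Mup4 and Mup21) that passed the threshold of 0.05. Over all genes tested, 248 of 10969 genes passed, or 2.26%, of which 115 (1.05%) were higher and 133 (1.21%) were lower under restriction. When libraries were scaled by their totals alone, 548 genes were called higher and 79 lower, and the median log2 fold change of all genes moved from 0.01 to 0.19. Mup21 fell by 1.41 on that scaling, against that median, with an adjusted p of 0.00327 (edgeR). The plain CPM given here are on the scale of the totals.

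Mup4 had between 4 and 24 tags in a liver. The control livers held 0.755 CPM at the lowest, 1.23 at the median and 1.90 at the highest, and the restricted livers 0.369, 1.27 and 2.62. The restricted range enclosed the control range. The log2 fold change of Mup4 was −0.08 (SE 0.36, edgeR adjusted p = 0.951), and it was 0.11 when libraries were scaled by totals alone. Mup5 had no more than 2 tags in any liver, with 2 tags in all among control livers and 4 among restricted livers, and was not tested. At these counts no difference in Mup5 was detectable.

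**Figure D1:**
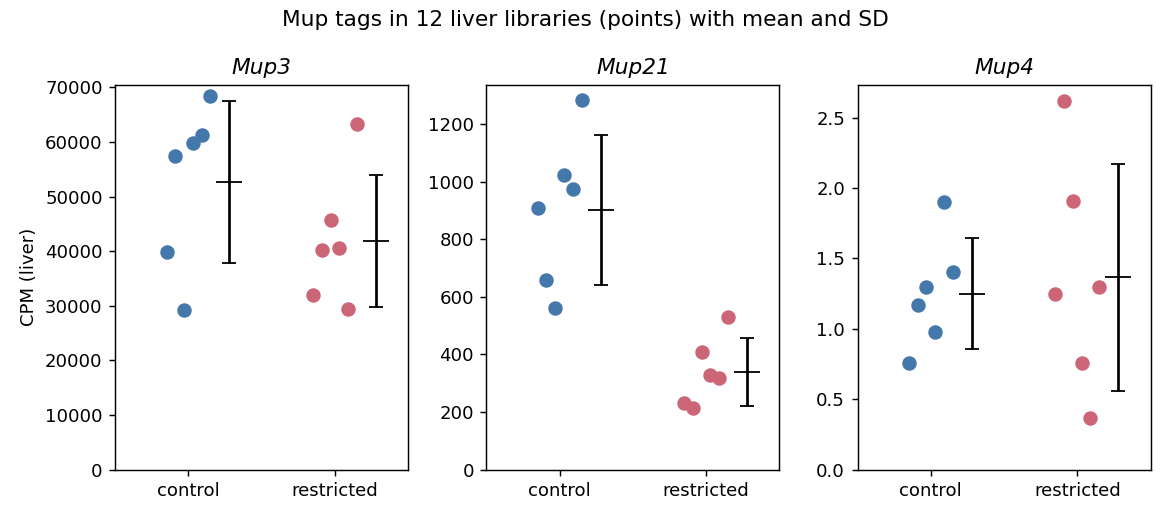
CPM (vertical axis, linear, a separate scale for each gene) of Mup3, Mup21 and Mup4 in the 6 control and 6 restricted livers. Points are libraries, and the bar beside them is the mean with its SD. The Mup21 groups do not overlap, the highest restricted liver being at 528.7 and the lowest control liver at 561.7, whereas the Mup3 and Mup4 groups do.

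Within the livers the balance between Mup3 and Mup21 shifted. Control livers held 11.5 Mup21 tags per 1000 Mup3 tags at the lowest, 17.9 at the median and 22.8 at the highest. Restricted livers held 5.31 at the lowest, 8.23 at the median and 10.9 at the highest, so that these groups did not overlap either. The means were 17.5 ± 3.78 (SD, n = 6) and 8.13 ± 1.84 (SD, n = 6). Across the 12 livers the log2 levels of Mup3 and Mup21 had a Pearson r of 0.66, those of Mup3 and Mup4 0.35 and those of Mup21 and Mup4 −0.04. These are descriptions over libraries that share a diet difference.

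**Figure D2:**
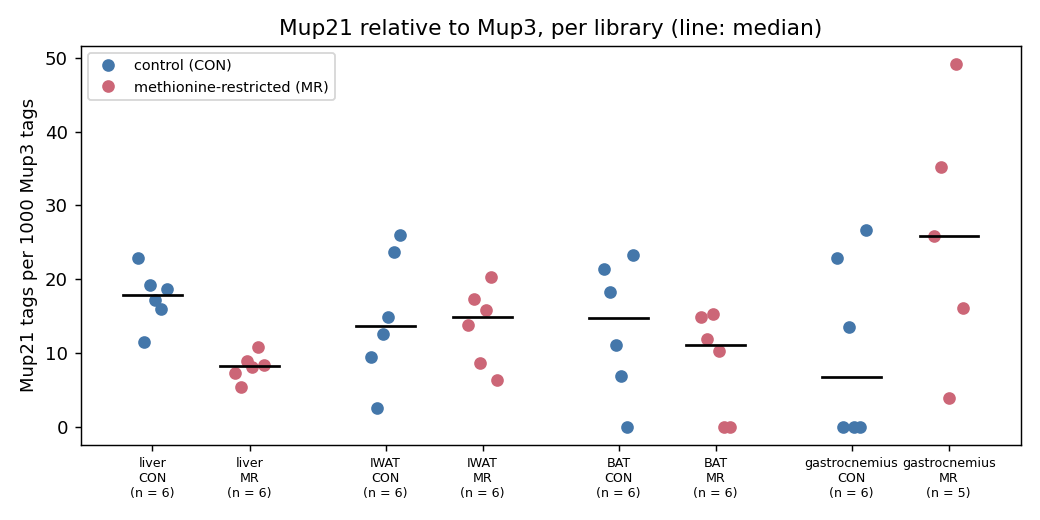
Mup21 tags per 1000 Mup3 tags (vertical axis) in each library of the 4 tissues, by diet (CON, control; MR, methionine-restricted), with the median as a line. In liver the restricted libraries end at 10.9 and the control libraries begin at 11.5, and in the other tissues the diets overlap.

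The other symbols of the family gave mixed values. Of the 9 Mup symbols tested in liver, Mup6 also fell, by 1.06 on the log2 scale (SE 0.23, edgeR adjusted p = 0.0216). Its level went from 7.88 ± 0.655 CPM (SD, n = 6) to 4.37 ± 1.68 (SD, n = 6), with no overlap, on 16 to 92 tags per liver. Of all genes tested, 1.21% were called lower, and 0.438% had every restricted liver below the lowest control liver. Mup11, the most abundant of the other symbols, was at 905.9 ± 292.4 CPM on the control diet and 1686 ± 963.4 under restriction (SD, n = 6 each). Its log2 fold change of 0.69 (SE 0.37) had an adjusted p of 0.419 in edgeR. Mup10, Mup12, Mup15 and Mup17 did not pass the test, with log2 fold changes of 0.28, −1.81, −0.82 and −1.20. Tags outside Mup3 and Mup21 made up 1.91% to 3.35% of assigned Mup tags in control livers and 1.61% to 8.89% in restricted livers. With the 20 symbols added together, the log2 fold change was −0.52 (SE 0.24), close to that of Mup3, which dominates the sum of assigned tags.

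Hepatocyte content and the main plasma protein genes were set beside these values. Of the 19 hepatocyte markers tested in liver, 18 did not pass the test and 1, Serpina3k, fell, beside 1.21% of all tested genes. Their median log2 fold change was −0.16 against 0.01 for all genes. Their summed level was 175317 to 255361 CPM in control livers and 128708 to 214866 in restricted livers. Alb, the gene of serum albumin, was the most abundant of them, with a log2 fold change of −0.43 (edgeR adjusted p = 0.494). Relative to 1000 Alb tags, Mup3 stood at 384.6 ± 113.2 (SD, n = 6) in control livers and 415.0 ± 291.4 (SD, n = 6) in restricted livers. The wide restricted spread came with 1 library, Liver3116, at 993.4 Mup3 tags per 1000 Alb tags, where the other 5 were between 187.2 and 395.1.

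Upstream of the start sites, Mup3 and Mup21 are nearly copies of each other. RefSeq gives start sites with promoter windows for Mup2, Mup3, Mup4 and Mup21. The 250 bases before the starts of Mup3 and Mup21 were 89.5% identical over 256 aligned positions, and both are printed because Mup21 passed the diet test and Mup3 did not. The capitals mark ATCAAT, the core letters bound by hepatocyte nuclear factor 6, and also a TATA box with the letters TATATAA. Mup3 is at chr4:62087318-62087567 and Mup21 at chr4:62150842-62151091, minus strand, GRCm38.p6.

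Mup3: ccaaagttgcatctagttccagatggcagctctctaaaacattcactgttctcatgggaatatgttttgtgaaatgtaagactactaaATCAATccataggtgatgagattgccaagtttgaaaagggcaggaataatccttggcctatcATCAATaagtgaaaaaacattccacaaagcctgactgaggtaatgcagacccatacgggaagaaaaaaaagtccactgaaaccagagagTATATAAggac
Mup21: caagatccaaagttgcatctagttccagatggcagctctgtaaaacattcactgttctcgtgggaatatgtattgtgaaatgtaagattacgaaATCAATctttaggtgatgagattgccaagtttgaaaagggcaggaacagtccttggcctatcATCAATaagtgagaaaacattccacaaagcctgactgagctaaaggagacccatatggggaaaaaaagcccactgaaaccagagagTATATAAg

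Bases past the start were not searched. In the 250 bases before each start, called the window from here on, ATCAAT was searched on both strands. It occurred 2 times in each of the 12 Mup promoters searched, against 6.72% of all 32851 promoters with at least 1 match. The 12 belong to closely related genes, so they are not separate cases to set beside a share of all promoters. TATATAA, searched likewise, occurred in the windows of Mup2, Mup3, Mup4 and Mup21 and in 3.04% of all promoters. Among the Mup windows outside the members, those of Mup6, Mup9, Mup10, Mup15 and Mup17 held it, and those of Mup7, Mup11 and Mup14 did not. The second ATCAAT of Mup7, Mup11 and Mup14 lies nearer the start than that of Mup2, Mup9, Mup10, Mup15 and Mup17. At the spacing of those other windows, a TATATAA in Mup7, Mup11 or Mup14 would run past the start. Their windows therefore cannot show whether these promoters lack it. The palindromic STAT5 letters TTCNNNGAA occurred in none of the 12 Mup windows and in 7.02% of all promoters. The 3 patterns do not overlap in the printed windows, and a match is only a match of letters.

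Genes in and around growth hormone signalling, and liver transcription factors, were read in the same liver fit, from lists chosen with earlier results of these data known. Over all genes tested, 1.05% rose and 1.21% fell. The growth hormone signalling list also holds genes of other hormones, such as Fgf21 and Prlr. Among its 23 tested genes, 3 rose, 1 fell and 19 did not pass, with a median log2 fold change of 0.07 against 0.01 for all genes. Ghr, the growth hormone receptor, fell by 0.60 on the log2 scale (SE 0.12, edgeR adjusted p = 0.0135), from 831.0 ± 135.5 to 620.7 ± 34.8 CPM (SD, n = 6 each). Igfbp2, an IGF-binding protein, rose by 0.74 (adjusted p = 0.00548), Prlr, the prolactin receptor, by 0.96 (adjusted p = 0.0298) and Fgf21, a hormone of nutrient restriction, by 1.76 (adjusted p = 0.0132). Stat5b, the factor on which Mup synthesis depends, had a log2 fold change of 0.28 (adjusted p = 0.369), and Igf1 of −0.59 (adjusted p = 0.0572). Of 21 tested liver transcription factors, 1 fell, Cebpa (log2 fold change −0.48, adjusted p = 0.012), and 20 did not pass (median 0.02). Ppara, Nr1i3 and Cebpb, the next by p, had log2 fold changes of −0.45, 0.43 and 0.58 with adjusted p of 0.065, 0.274 and 0.372.

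The other sex-biased genes of liver were counted for comparison with the male-biased Mup family. Of 31 male-biased genes listed, 29 were in the table and 25 were tested, of which 6 fell and none rose, beside 1.21% of all tested genes that fell. The median log2 fold change of the 25 was −0.52, beside 0.01 over all genes tested. Those that fell were Cyp4a12b (log2 fold change −2.42), Serpina12 (−2.40), Selenbp2 (−1.35), Cyp4a12a (−0.86), Ugt2b1 (−0.62) and Nudt7 (−0.52), with edgeR adjusted p from 0.00191 to 0.0459. The fatty acid hydroxylase gene Cyp4a12b went from 29.3 ± 5.41 to 6.31 ± 4.54 CPM (SD, n = 6 each) with no overlap, as Mup21 did. Of 34 female-biased genes listed, 32 were in the table, but only 13 had enough tags to be tested. Genes that are low in control liver can pass that filter through the restricted libraries, as Cyp2c69 could at 1.66 CPM on the control diet and 8.67 under restriction, so the tested genes do not stand for the list. Those that rose were Cyp4a14 by 2.88, Cyp2c69 by 2.21 and Cyp39a1 by 2.15, with edgeR adjusted p from 1.32e-05 to 0.00865, where 1.05% of all tested genes rose. Cyp4a10 at 1.13 missed the threshold (adjusted p = 0.0509). Cyp4a12a and Cyp4a12b are near copies of each other, and Cyp2c69 has close relatives, so counting could divide their tags too. Of 23 lipocalins listed outside the Mup family, 7 were tested, with a median log2 fold change of −0.05. Of these 7, 3 fell, beside 1.21% of all tested genes: Orm3 (log2 fold change −3.22) and Orm1 (−1.57), both acute-phase carriers, and C8g, a complement component (−0.49, edgeR adjusted p from 0.000712 to 0.0273). Orm3 rests on few tags, with restricted livers between 0.092 and 0.416 CPM. Apom, at 0.24, did not pass (adjusted p = 0.417). The list of 27 major secreted hepatocyte proteins holds the 19 hepatocyte markers given above, so the 2 lists are not separate. Of the 27, 1 fell, the same Serpina3k (−0.81, edgeR adjusted p = 0.0158), beside 1.21% of all tested genes. Fabp1, Serpina1b and Kng1 were at −0.44, −0.46 and −0.39 with adjusted p of 0.065, 0.151 and 0.161.

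The genes whose levels most resembled the summed members over the 12 livers were ranked by Pearson r of log2 CPM among 9779 genes, as a description over libraries that share depth and diet. Mup3 gave 5847316 tags of that sum and Mup21 gave 78620, so the ranking describes Mup3 and not Mup21. The first 10 included Fam55b (0.87), Cyp2d9 (0.87), Serpine2 (0.86), Nif3l1 (0.85), Hsd3b5 (0.83), Adh6-ps1 (0.78), Crygn (0.77), Serpina4-ps1 (0.73) and Slco1a1 (0.73). Of the 10, 4 stood on the male-biased list (Cyp2d9, Hsd3b5, Serpina4-ps1 and Slco1a1), none of which passed the diet test. That list held 25 of the 10969 genes tested in liver and was chosen with earlier results of these data known. With each diet's mean subtracted the first 10 were Fam55b (0.88), Pnpt1 (0.88), Hyal1 (0.87), Zfp619 (0.86), Ccnt1 (0.85), Nif3l1 (0.85), Serpine2 (0.85), Bloc1s3 (0.84), Cyp2d9 (0.84) and Slc22a15 (0.81), of which 1, Cyp2d9, stood on the male-biased list.

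Outside liver, Mup3 tags were present in every library but at far lower and far more uneven levels. In the joint edgeR fit on control libraries, Mup3 in liver exceeded IWAT by 6.31 on the log2 scale (SE 1.24, adjusted p = 3.8e-05), BAT by 7.57 (SE 1.32, adjusted p = 4.99e-06) and gastrocnemius by 12.70 (SE 1.60, adjusted p = 4.36e-09). The corresponding differences for Mup21 were 6.63, 7.45 and 12.61, with adjusted p from 1.9e-08 to 3.06e-05. The control BAT libraries include BAT3106, at 2503 CPM of Mup3 against 11.3 to 59.7 in the others. With the animal as a replicate block, liver exceeded BAT by 10.30 for Mup3 and 10.03 for Mup21 in edgeR, and by 10.40 and 10.64 in limma voom. Of the 13541 genes in that fit, 49.7%, 47.9% and 56.8% passed in these 3 contrasts, so a tissue difference by itself is common. Mup4 had 80 tags in the control livers, 0 in control IWAT and gastrocnemius and 1 in control BAT. Mup4 and Mup5 were listed at 0 in all 11 gastrocnemius libraries, where a count of 0 allows up to 0.387 CPM in the shallowest.

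In control mice the order of Mup3 levels was liver, IWAT, BAT and gastrocnemius, with medians of 58630, 252.8, 23.2 and 7.85 CPM. IWAT and BAT, neighbours in that order, did not differ beyond their spread in edgeR (log2 difference 1.27, SE 1.00, adjusted p = 0.336), where 33.4% of genes passed. With the animal as a block in limma voom that difference passed (2.80, adjusted p = 0.0178), and with animal terms in edgeR it did not (3.20, adjusted p = 0.0898). Mup3 in IWAT exceeded gastrocnemius by 6.40 (adjusted p = 3.98e-05, 52.5% of genes passing), and in BAT by 5.13 (adjusted p = 0.000454, 40.9% passing). In the fits with the animal as a block, the BAT to gastrocnemius difference of Mup3 did not pass. It was 2.58 in edgeR (adjusted p = 0.0845) and 2.47 in limma voom (adjusted p = 0.0643). That of Mup21, 5.16 (adjusted p = 0.00215), did not pass there either, at adjusted p of 0.095 and 0.147. The joint limma voom fit had a correlation within animals of −0.0325. It was not run without the block, so block and method cannot be told apart in it. Mup21 in IWAT was 0.82 above BAT, which did not pass (adjusted p = 0.562), and exceeded gastrocnemius by 5.98 (adjusted p = 0.000406).

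In IWAT the Mup3 level was uneven within each diet. Control libraries held 96.6 CPM at the lowest, 252.8 at the median and 4315 at the highest, and restricted libraries 87.2, 309.0 and 4943. A few libraries set the means: IWAT3103 (control) at 4315, IWAT3113 (restricted) at 4943 and IWAT3114 (control) at 1685, while the other 9 lay between 87.2 and 463.0. Mup21 ran from 0.473 to 40.6 CPM on the control diet and from 1.20 to 100.1 under restriction, and the same 3 libraries were its highest. In edgeR the diet log2 fold changes were −0.12 (SE 1.15) for Mup3 and 0.25 (SE 1.25) for Mup21, both with adjusted p of 1.00. Only 3 of 11101 genes, 0.027%, passed in IWAT. Without those 3 libraries the values were 0.56 (SE 0.69) and −0.09 (SE 0.75), so both changed sign and neither passed. Without IWAT3113 alone, Mup21 was at −2.42 (SE 1.04, adjusted p = 0.647). Mup4 had 1 tag in each of 2 restricted IWAT libraries (IWAT3113 and IWAT3116) and none elsewhere in IWAT.

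In BAT a single library dominated. The control library BAT3106 held 32835 Mup3 tags, or 2503 CPM, while the other 5 control libraries lay between 11.3 and 59.7 and the 6 restricted libraries between 8.44 and 57.9. The log2 fold change of Mup3 was −3.79 (SE 1.33, edgeR unadjusted p = 0.0127, adjusted p = 0.217), where 120 of 10791 genes, 1.11%, passed. With limma voom it was −1.16 and with the authors' normalized values −1.13 (pseudocount 1) and −1.11 (pseudocount 10), also uncalled. Without BAT3106 it was 0.091 (SE 0.54, adjusted p = 0.968). Mup21 had 600 tags in BAT3106 and at most 12 in any other BAT library, and it was not tested there because too few libraries held enough tags. The only Mup4 tag in BAT was in BAT3106 too.

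In gastrocnemius Mup3 was lowest. Control libraries held 3.51 CPM at the lowest, 7.85 at the median and 22.2 at the highest. The 5 restricted libraries held 5.78, 11.5, 16.2, 21.7 and 51.1, the last being SM3101, the library that stood apart from its tissue. The groups overlapped, and the log2 fold change was 1.58 (SE 0.67, edgeR unadjusted p = 0.0339, adjusted p = 0.764). None of 11225 genes passed (0%), with 709 at an unadjusted p under 0.05, and DESeq2 called 2. Without SM3101 the Mup3 value was 0.57 (SE 0.49, adjusted p = 1.00). Mup21 had 0 to 5 tags in control and 1 to 11 in restricted libraries and was not tested.

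**Figure D3:**
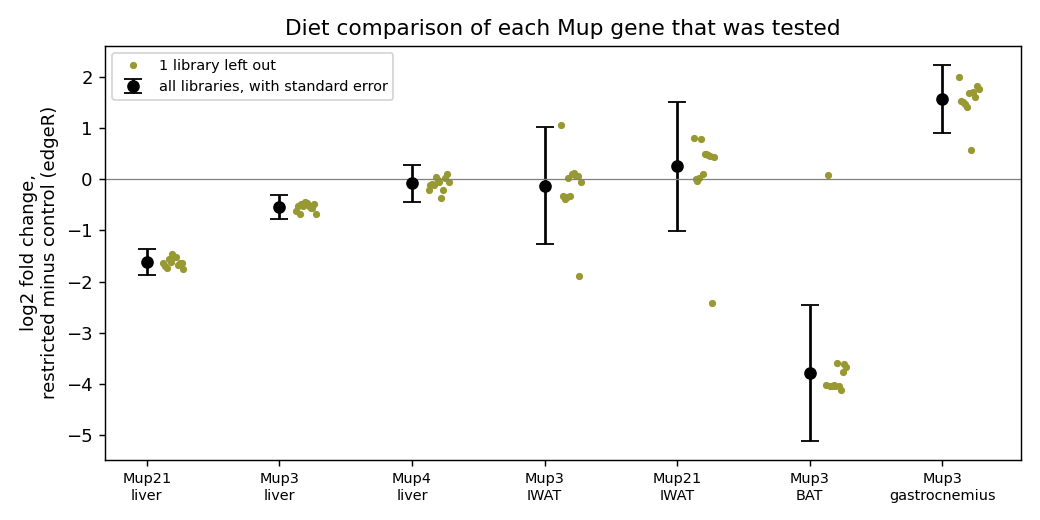
Log2 fold change, restricted minus control, for each Mup gene and tissue that was tested (edgeR, black point with standard error), with the value after leaving out each library in turn (small points). Mup21 in liver stays between −1.76 and −1.47, whereas 1 point of Mup3 in BAT moves to 0.091 and the IWAT values cross 0.

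Whether the diet difference of a member in liver differed from that in another tissue was tested in the joint fit. The liver minus IWAT difference of differences for Mup21 was −1.91 (SE 1.45, edgeR adjusted p = 0.920), liver minus BAT 2.78 (SE 1.62, adjusted p = 0.868), which was 0.26 and −0.015 with the animal as a replicate block in edgeR and limma voom, and liver minus gastrocnemius −3.29 (SE 1.86, adjusted p = 0.694). For Mup3 they were −0.46 (adjusted p = 1.00), 3.16 (adjusted p = 0.703; 0.38 and 0.68 with the block) and −2.08 (adjusted p = 0.783). No member passed in any of these 3 contrasts, in which 0.591%, 0.103% and 0.0295% of 13541 genes did. The fall of Mup21 in liver was therefore not shown to differ from its value in the other tissues. Their wide errors leave large differences possible.

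The level of Mup3 outside liver moved with the hepatocyte markers. Over the 12 IWAT libraries the log2 level of Mup3 and the log2 summed level of the 19 markers had a Pearson r of 0.99 (Spearman 0.98), over the 12 BAT libraries 0.96 (0.81) and over the 11 gastrocnemius libraries 0.95 (0.91), as descriptions over libraries. The marker sum ran from 324.2 to 12966 CPM in IWAT, from 45.2 to 4521 in BAT and from 15.7 to 139.0 in gastrocnemius. BAT3106 was the library at 4521, and IWAT3103 the library at 12966. In every IWAT library 13 or more of the 19 markers were detected, in BAT 12 or more and in gastrocnemius 11 or more.

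The Mup tags were also set against the tags of Alb, the albumin gene, in each library. Relative to 1000 Alb tags, control libraries held 384.6 ± 113.2 Mup3 tags in liver, 409.0 ± 107.7 in IWAT, 583.6 ± 130.6 in BAT and 332.4 ± 105.9 in gastrocnemius (SD, n = 6 each). Restricted libraries held 415.0 ± 291.4 in liver, 430.4 ± 168.3 in IWAT and 812.1 ± 551.2 in BAT (SD, n = 6 each), and 716.2 ± 373.0 in gastrocnemius (SD, n = 5). Mup21 per 1000 Mup3 tags was 14.8 ± 8.82 in control IWAT and 13.7 ± 5.33 in restricted IWAT (SD, n = 6 each), beside the 17.5 and 8.13 of control and restricted liver, and the difference between the tissues was not tested. In BAT it ran from 0 to 23.3 and in gastrocnemius from 0 to 49.2, on few Mup21 tags. The part of hepatocyte transcripts in the Mup levels of IWAT, BAT and gastrocnemius was not tested.

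**Figure D4:**
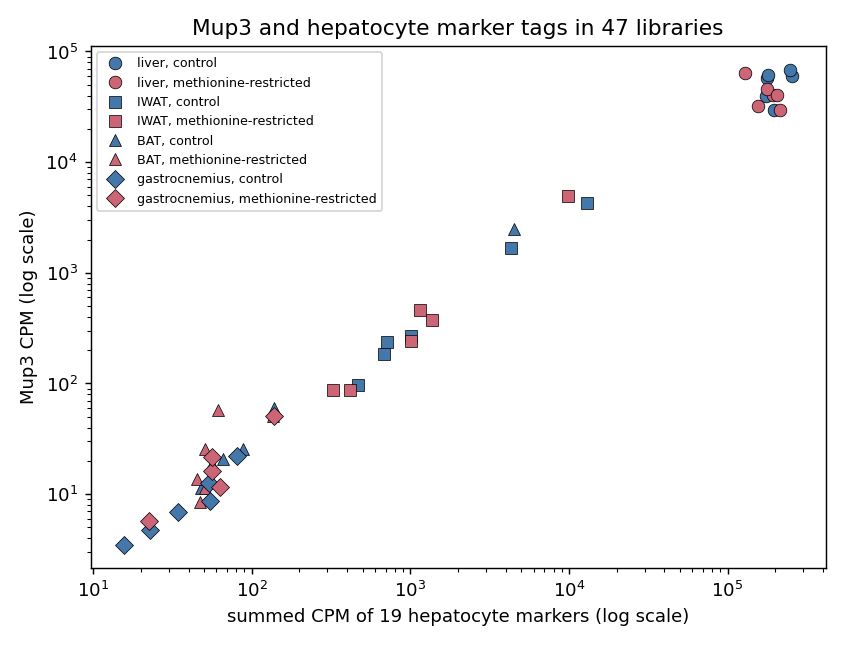
Mup3 CPM (vertical, log scale) against the summed CPM of 19 hepatocyte markers (horizontal, log scale) in 47 libraries, with tissue as symbol and diet as colour. The IWAT, BAT and gastrocnemius libraries lie along 1 band that ends below the liver libraries at upper right, and BAT3106 stands at 4521 on the horizontal and 2503 on the vertical axis.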

How the data were processed

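Per the labels, tissue RNA was extracted with Trizol, 7 to 12 ng was made into 3′ tag libraries with the SOLiD SAGE kit, and tags were mapped uniquely to mouse RefSeq genes. The raw tables hold the deposited counts of tags per gene symbol. The authors' second set of tables holds the same counts divided by a size factor per library (a normalized signal, which carries whole reads), with DESeq, mm10 and GRCm38.p1 named in the submitters' processing notes. The members and lists were chosen with earlier results of these data known.

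Within each tissue, diets were compared with edgeR 4.0.16 (R 4.3.3) by its quasi-likelihood test, with the default expression filter (minimum count 10), TMM factors and Benjamini-Hochberg adjustment over all genes tested (threshold 0.05). Standard errors are the size of the log2 fold change divided by the root of F. Levels are CPM on the library totals, 4887004 to 13117537 tags. A joint fit over 47 libraries compared tissues on symbols present in all 4 tables. Animal numbers recur across tissues, and same-numbered libraries deviated from their group means with mean correlations from −0.0235 to 0.0627. The alternatives were limma 3.58.1, DESeq2 1.42.0, other scalings and filters, the authors' normalized values, leaving out libraries and animal as a block. Genes were named by a rule: each list's 4 smallest p in liver plus every call where 8 or fewer, and the 10 most alike, of which 1 is not reported here; Stat5b, Igf1, Alb and the other Mup symbols were named outside it. Tags were read from GENCODE transcripts of an earlier build (21 Mup genes) and promoters and positions from RefSeq, GRCm38.p6, which matched all 7 members by symbol and 4 for promoters. Fits were tested on simulated data. Nothing says that libraries came from separate extractions, so p-values measure the spread between these libraries.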

Additional observations from a re-analysis of the deposited data

Results flagged for a closer look

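Values of single libraries stood apart from their group in 7 of 28 groups examined by the gap to the nearest library as a share of the group's range, where chance gives about 1 in 20 for independent, normally distributed values. These groups are not independent, since Mup3 and Mup21 stood apart in the same library in IWAT and in BAT. In IWAT under restriction, library IWAT3113 held 4943 CPM of Mup3 against 463.0 in the next, and 100.1 CPM of Mup21 against 3.84. In BAT on the control diet, library BAT3106 held 2503 CPM of Mup3 against 59.7 in the next, and 45.7 CPM of Mup21 against 1.28. Relative to 1000 Alb tags, Mup3 stood at 993.4 in Liver3116 (restricted) against 395.1 in the next, at 1880 in BAT3104 (restricted) against 870.5, and at 536.8 in SM3103 (control) against 328.5.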

How the results depend on the processing

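In liver, Mup21 alone among the members was called under each of the 9 other settings and 12 omissions of a library, with log2 fold changes from −1.76 to −1.41 and adjusted p from 1.55e-08 to 0.00704. Mup3 kept its sign and stayed uncalled under the same settings (−0.68 to −0.33). Mup4 turned to 0.11 with totals alone and ran from −0.36 to 0.11 over omissions. Genes called in liver were 248, but 490 with DESeq2 and 627 with totals alone, and 158 to 322 over omissions, the lowest without Liver3109.

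In IWAT, genes called moved from 3 to 6 with upper-quartile factors, 7 with limma voom, 310 with DESeq2, 12 with the authors' normalized values at either pseudocount (1 or 10), 0 without the libraries that stand apart, 1 without the 3 libraries highest in Mup tags (chosen after seeing the data), and 0 to 41 over omissions (41 without IWAT3114, 4 without IWAT3116 and 0 without each other library). Mup21 there turned to −0.26 with limma voom, −0.20 and −0.24 with the authors' values, −0.0071 without the libraries that stand apart and −0.0896 without the 3 highest, and ran from −2.42 to 0.82 over omissions. Mup3 in IWAT turned to 0.56 without the 3 highest and ran from −1.90 to 1.06 over omissions.

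In BAT, 120 genes became 317 with DESeq2 and 50 to 111 over omissions, the lowest without BAT3104, with falls past 1.5 times also without BAT3103, BAT3112, BAT3114, BAT3101 and BAT3102 (63 to 79). Mup3 in BAT turned to 0.091 without BAT3106, an omission also run as a setting added after seeing the data, and ran from −4.12 over the others. In gastrocnemius DESeq2 called 2 genes against 0, and Mup3 ran from 0.57 to 1.998 over omissions. The cause of these moves was not tested.

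With the animal as a replicate block, members called over the 6 tissue contrasts were 11 in edgeR and 12 in limma voom. They were 13 in edgeR without the block. In the diet by tissue contrasts they were 0 with and without it. The joint limma voom fit was not run without the block. Low tag counts limit Mup4, Mup5 and, outside liver and IWAT, Mup21.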
